A study of Mus musculus with 15 samples.

Results

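The keratins Krt7, Krt8, Krt18, Krt19 and Krt23 and the adhesion genes Cdh1, Cdh16 and Epcam were followed as a group of 8 epithelial genes in mouse kidney. They were chosen by symbol, as all probe sets that the platform annotation maps to these names. This gave 11 of 45037 probe sets and 8 of 18193 genes: 3 probe sets for Krt8, 2 for Epcam and 1 for each of the other 6 genes. All mice carried Tg:Col1a1-eGFPL10a, a transgene in which a collagen 1α1 promoter and enhancer drive eGFP fused to the ribosomal protein L10a, on a C57/129sv strain background, with both sexes and an age range of P14-P300. In translating ribosome affinity purification (TRAP), ribosomes that carry the tag are pulled from a lysate with the mRNA on them, and this RNA is the bound fraction. The labels describe the bound fraction as kidney pericytes (periarterial fibroblasts of the medulla) and the remaining, unbound RNA as kidney medulla. The 5 groups of 3 arrays were bound day 0 (arrays 1 to 3) and unbound day 0 (4 to 6) from sham-operated kidneys, bound day 2 (7 to 9), bound day 5 (10 to 12) and unbound day 5 (13 to 15) from kidneys after unilateral ureteral obstruction (UUO), a surgical block of urine flow.

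Keratins are the intermediate filament proteins of epithelia. They assemble as pairs of a type II chain, here Krt7 or Krt8, with a type I chain, here Krt18, Krt19 or Krt23, and Krt8 with Krt18 is the usual pair of simple epithelia such as the kidney tubule. Cdh1 (E-cadherin) holds neighbouring epithelial cells together at adherens junctions, Cdh16 (Ksp-cadherin) is a cadherin of kidney tubules, and Epcam is a surface protein of most simple epithelia. Fibroblasts and pericytes are mesenchymal cells, in which these genes are usually low and Cdh11, Des and collagens are high.

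Values below are log2 of quantile-normalized signal, called levels, and differences are log2 differences ± standard error from limma, fitted over 16864 genes with p-values adjusted by the Benjamini-Hochberg method. A gene passed at an adjusted p under 0.05. Whether arrays of 1 group stand for different mice is not stated in the labels. The p-values therefore rest on array-to-array spread, which may be technical, and having 3 arrays in each group limits the precision. Median raw signal ranged from 16.4 to 198.8 intensity units. Arrays 6, 9, 12 and 15 were brighter than the others, with spiked controls at 8112 to 8849 units against 2561 to 3419, and the bound day 0 group holds none of them. The Gapdh 5′ to 3′ ratio, a sign of RNA quality, was 0.0269 for array 11 of bound day 5 and 0.178 to 0.583 elsewhere.

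The labelled cell type was checked by its markers. On day 0 the bound fraction was higher than the unbound one for 8 of 11 fibroblast and pericyte markers, among them Col1a1 (2.43 ± 0.19, adjusted p = 8.61e-05), but also for 3 of 3 tested podocyte markers. Over all genes 4.82% passed higher. On day 5 the bound fraction was higher for 5 of 11 fibroblast and pericyte markers and 2 of 3 podocyte markers, against 6.37% of all genes. Tubule transcripts were present in the bound fraction too. The thick ascending limb marker Umod differed by -0.08 between the fractions on day 0 (adjusted p = 0.856). The median differences were lower for the tubule lists: -0.30 for thick ascending limb and -0.46 for proximal tubule markers. They were -0.87 for collecting duct and -1.44 for distal convoluted tubule markers, against -0.13 over all genes. In that order 0 of 4, 0 of 7, 2 of 9 and 1 of 3 markers passed lower, against 4.1% of all genes. All 8 epithelial genes lay above the highest negative control on all 15 arrays. Their lowest level was 6.15, for Krt23 on array 12, and the negative control limits ran from 3.41 to 5.09. In bulk RNA, fewer cells of a type and less RNA per cell cannot be told apart.

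Promoter sequence is shown for Krt8 and Krt18, which are neighbours and whose levels moved together, and for Krt23 and Epcam, which were among the genes that passed. The promoter table used here, taken from RefSeq on build GRCm38.p6, matched 5 of the 8 genes, Krt7 being the other one. The promoters of Krt19, Cdh1 and Cdh16 were not analysed here. Each line gives the 200 bases before the start, 5′ to 3′ on the gene's strand, with matches to the searched motifs in capitals. The positions are chr15:102004343-102004542 (minus strand) for Krt8, chr15:102028016-102028215 (plus) for Krt18, chr11:99493121-99493320 (minus) for Krt23 and chr17:87635779-87635978 (plus) for Epcam.
Krt8: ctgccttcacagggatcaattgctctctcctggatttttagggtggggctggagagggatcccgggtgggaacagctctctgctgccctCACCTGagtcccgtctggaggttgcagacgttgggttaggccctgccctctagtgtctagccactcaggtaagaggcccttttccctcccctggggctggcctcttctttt
Krt18: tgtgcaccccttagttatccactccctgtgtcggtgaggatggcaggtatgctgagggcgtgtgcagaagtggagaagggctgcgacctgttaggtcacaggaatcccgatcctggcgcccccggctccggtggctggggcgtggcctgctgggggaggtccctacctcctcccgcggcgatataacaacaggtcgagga
Krt23: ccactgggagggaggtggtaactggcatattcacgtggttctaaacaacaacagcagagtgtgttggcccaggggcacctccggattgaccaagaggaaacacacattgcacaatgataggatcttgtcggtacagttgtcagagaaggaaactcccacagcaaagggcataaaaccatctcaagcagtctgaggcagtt
Epcam: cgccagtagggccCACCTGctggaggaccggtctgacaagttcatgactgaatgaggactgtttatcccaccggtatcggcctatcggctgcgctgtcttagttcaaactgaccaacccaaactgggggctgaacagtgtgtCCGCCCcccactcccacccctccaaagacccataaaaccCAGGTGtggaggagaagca

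The 6 motifs, searched on both strands, were the TATA box TATAAA, the GC box GGGCGG, the AP-1 site TGANTCA, the E-box CAGGTG, the grainyhead site AACCGGTT and the CCAAT box CCAAT. Krt8 had 1 E-box, Epcam had 2 E-boxes and 1 GC box, and Krt18 and Krt23 held none of the 6. Krt7, not shown, had 4 GC boxes and 1 E-box. Of 32851 promoters of this length, 13.9% held the E-box, 31% the GC box, 29.3% the CCAAT box, 9.96% the TATA box, 5.48% the AP-1 site and 0.0822% the grainyhead site. A match describes letters in this window and does not show that a factor binds there. In the same build Krt8 and Krt18 lie on chromosome 15 with 0 protein-coding genes between them.

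Krt8, Krt18 and Krt19 had their lowest mean in sham bound RNA and their highest in unbound RNA on day 5 of obstruction. Krt8, the type II chain of simple epithelia, read 9.79, 10.85 and 11.34 on the bound day 0 arrays, 12.68, 10.88 and 12.10 on day 2 and 11.67, 12.65 and 10.30 on day 5. In unbound RNA it read 11.87, 12.17 and 11.64 on day 0 and 12.82, 12.78 and 12.36 on day 5. The unbound day 5 arrays were all above the unbound day 0 arrays, while the bound groups of the 3 times overlapped. Krt18, its type I partner, read 11.14, 11.87 and 12.08 on bound day 0, 13.05, 11.91 and 12.17 on day 2 and 12.32, 12.68 and 11.62 on day 5. In unbound RNA Krt18 read 12.66, 12.77 and 12.66 on day 0 and 13.48, 13.21 and 13.23 on day 5. Its unbound groups did not overlap, and they were tight beside the bound ones, with SDs of 0.07 and 0.15 against 0.50 to 0.60.

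Krt19, a type I keratin of ducts and injured epithelium, read 8.73, 8.53 and 8.79 on bound day 0, 10.44, 8.01 and 9.13 on day 2 and 9.13, 10.68 and 8.64 on day 5. In unbound RNA Krt19 read 9.49, 9.89 and 9.10 on day 0 and 11.25, 10.54 and 11.14 on day 5. Array 7 of day 2 and array 11 of day 5 stood well above the other bound arrays. Krt7, a type II keratin of ducts and urothelium, read 10.98, 11.55 and 11.76 on bound day 0, 12.34, 10.33 and 11.25 on day 2 and 10.97, 12.05 and 9.90 on day 5. Unbound levels of Krt7 were 12.25, 12.70 and 12.25 on day 0 and 12.56, 12.37 and 12.18 on day 5. The unbound groups of Krt7 overlapped, with means of 12.40 ± 0.26 and 12.37 ± 0.19 (SD, n = 3).

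Krt23, a less studied type I keratin, had a lower mean on day 5 than on day 0 in both fractions. It read 6.67, 8.76 and 9.07 on bound day 0, 7.75, 7.47 and 8.17 on day 2 and 6.79, 6.45 and 6.15 on day 5. Unbound Krt23 read 8.81, 9.71 and 9.06 on day 0 and 7.78, 8.34 and 8.27 on day 5. Array 1 of the sham group lay within the day 5 range, and the other 2 sham arrays lay far above it.

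The adhesion genes had their lowest mean in bound RNA on day 5, as Krt7 and Krt23 did. Cdh1 read 11.25, 12.19 and 12.58 on bound day 0, 12.28, 11.06 and 11.88 on day 2 and 10.91, 11.47 and 10.15 on day 5. Unbound Cdh1 read 11.70, 11.93 and 12.46 on day 0 and 12.38, 12.23 and 12.45 on day 5. Only 1 day 5 bound array, array 11, reached into the sham bound range, and the fractions overlapped on day 0. Cdh16 read 11.30, 12.33 and 12.70 on bound day 0, 12.11, 9.68 and 11.25 on day 2 and 9.55, 11.03 and 8.80 on day 5. Unbound Cdh16 read 12.37, 12.52 and 12.16 on day 0 and 11.68, 11.75 and 11.77 on day 5. All 3 bound day 5 arrays lay below all 3 sham bound arrays.

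Epcam read 10.75, 11.79 and 12.04 on bound day 0, 12.22, 10.04 and 11.28 on day 2 and 10.64, 10.27 and 9.87 on day 5. Unbound Epcam read 12.26, 12.58 and 12.33 on day 0 and 12.31, 12.38 and 12.14 on day 5. The unbound arrays of both days lay above all bound arrays of days 0 and 5. These values come from the brighter of 2 probe sets. The dimmer one read 7.15, 8.88 and 6.57 on bound day 5 and 7.87, 8.63 and 8.11 on unbound day 5, and these groups overlapped. The 3 probe sets of Krt8 gave like values, with day 5 bound minus unbound differences of -1.08, -1.11 and -1.29.

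**Figure D1:**
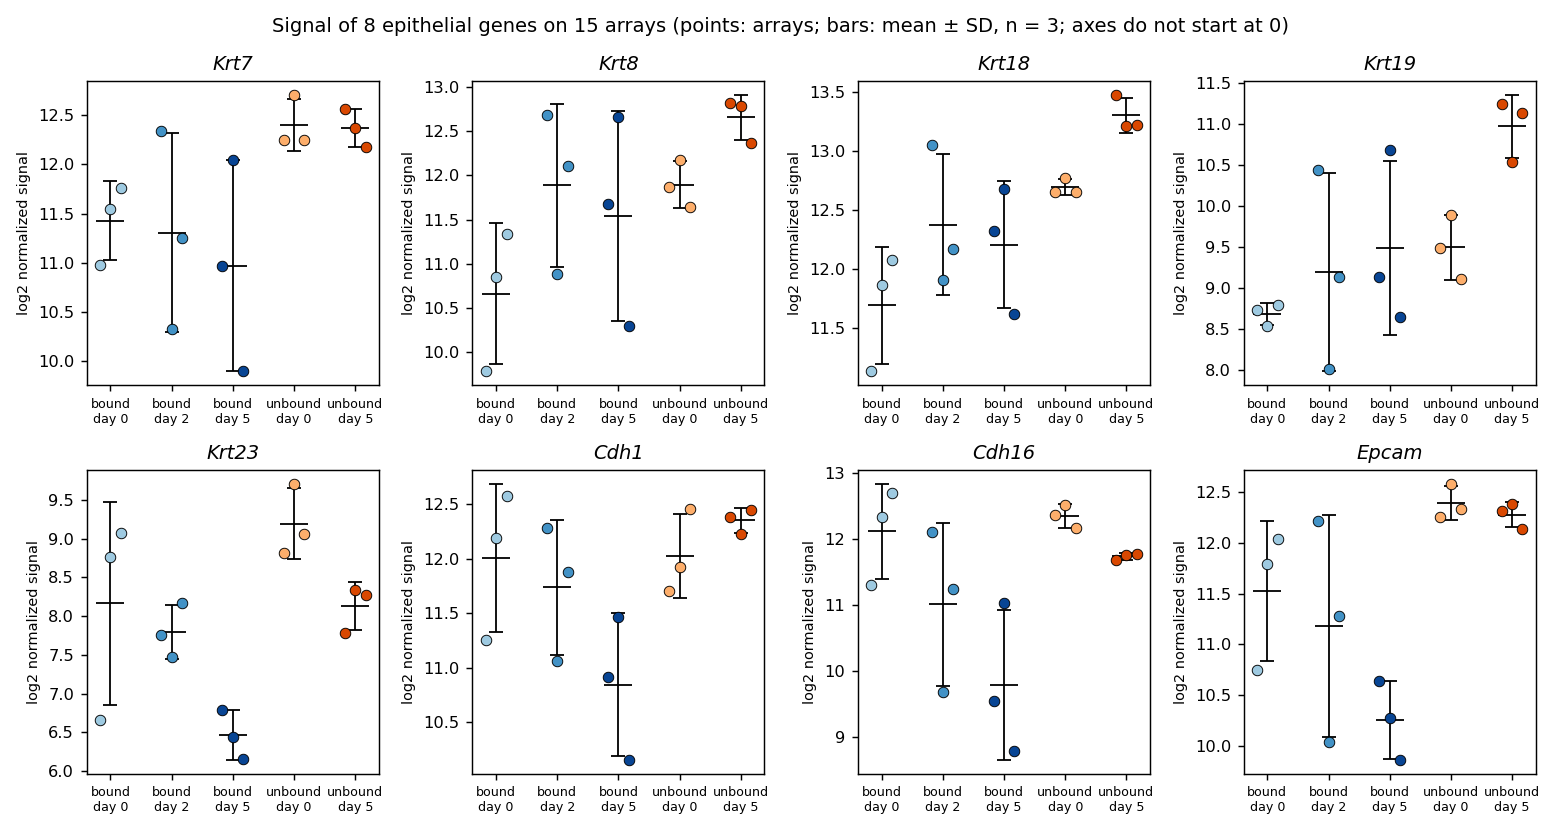
Levels of the 8 genes (log2 normalized signal, vertical axes, which do not start at 0) in the 5 groups, with a point for each array and a bar for the mean and SD of 3 arrays. The bound groups of days 2 and 5 spread widely, and Krt18 in unbound RNA lies at 12.66 to 12.77 on day 0 and 13.21 to 13.48 on day 5.

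Across the 8 genes the groups stood in different orders, and most neighbours in those orders were not apart. Of 32 neighbouring pairs of group means, 26 had overlapping ranges. The pairs were neighbours after sorting each gene's own means, which favours overlap. The same count was not made over all genes, so it describes these 8 genes only. The 6 pairs apart were unbound day 0 below unbound day 5 for Krt8, Krt18 and Krt19, bound day 0 below unbound day 5 for Krt7 and Epcam, and bound day 5 below bound day 2 for Krt23.

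Arrays of a bound group were high or low for nearly all members together. Array 1 was the lowest of its group for 7 of 8 genes and array 3 the highest for 8. Array 8 was the lowest of day 2 for 8 and array 7 the highest for 7, and array 12 was the lowest of day 5 for 8 and array 11 the highest for 6. The median SD of the members was 0.68 on bound day 0, 0.96 on day 2 and 0.86 on day 5, against 0.26 and 0.17 in unbound RNA on days 0 and 5. Over all genes tested the median SDs were 0.43, 0.61 and 0.41 in the bound groups and 0.26 and 0.25 in the unbound ones.

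Collecting duct and thick ascending limb markers had their lowest and highest sums on these same arrays of each bound group. The summed normalized signal of 9 collecting duct markers was 3541, 8835 and 11956 on arrays 1 to 3, 3273, 1666 and 3021 on arrays 7 to 9 and 1277, 2044 and 1068 on arrays 10 to 12. In unbound RNA it ran from 10258 to 15421 on day 0 and from 3973 to 5837 on day 5. The 4 thick ascending limb markers summed to 19057 to 33244 on bound day 0, 11154 to 20905 on day 2 and 9773 to 13658 on day 5, and to 25008 to 34928 over both unbound groups. Other tubule markers followed the members' order only in part. The 7 proximal tubule markers summed to 10501, 10443 and 17673 on arrays 1 to 3, to 10699, 2927 and 5491 on arrays 7 to 9 and to 3427, 3282 and 2241 on arrays 10 to 12, where Slc22a8 was at or below the negative controls. The 3 distal convoluted tubule markers summed to 1125, 456 and 1212 on arrays 1 to 3, to 402, 135 and 620 on arrays 7 to 9 and to 123, 356 and 136 on arrays 10 to 12. Fibroblast and pericyte markers, 11 in number, summed to 38217, 39641 and 40129 on arrays 1 to 3. They summed to 51476, 66466 and 54243 on arrays 7 to 9 and to 66438, 62890 and 63919 on arrays 10 to 12. Array 1 was thus the lowest and array 3 the highest of bound day 0, as for most members. On day 2 array 7 was the lowest and array 8 the highest, and on day 5 array 11 was the lowest. In unbound RNA they ran from 10017 to 13791 on day 0 and from 35938 to 38116 on day 5. The part of these markers in the members' differences was not tested.

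**Figure D2:**
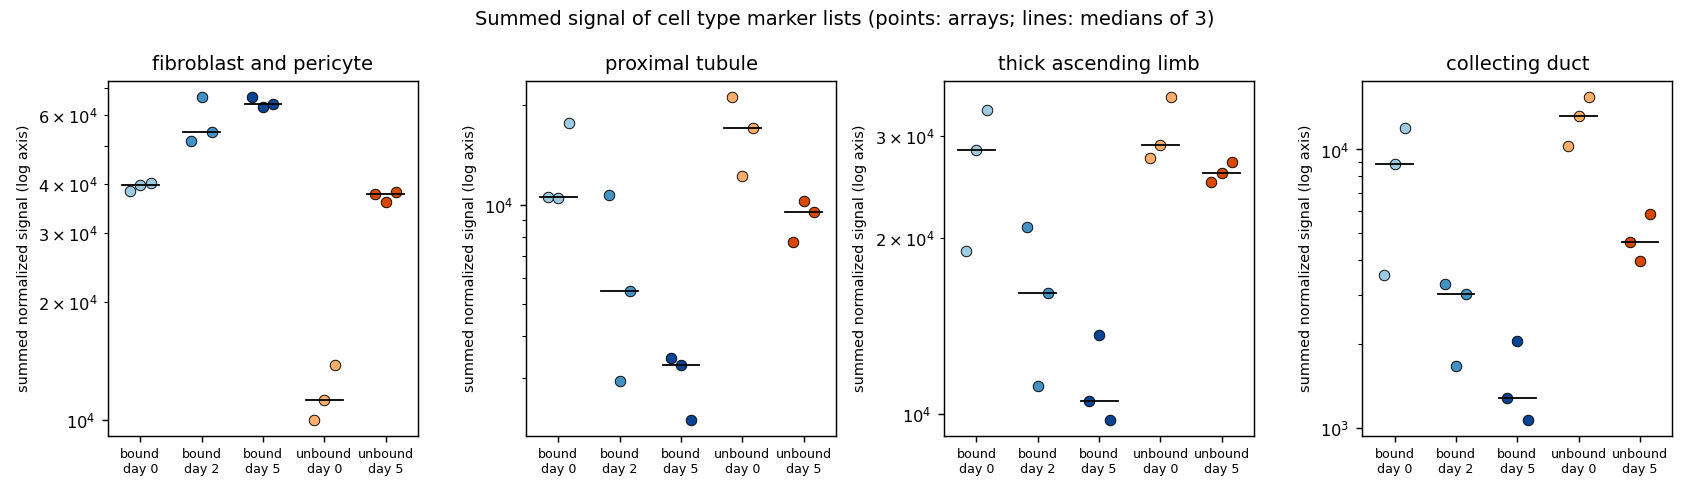
Summed normalized signal (log axes) of 4 marker lists in the 5 groups, with a point for each array and a line at the median of 3. Collecting duct markers are at 3541 to 11956 on bound day 0 and 1068 to 2044 on bound day 5, and fibroblast and pericyte markers are at 62890 to 66438 there.

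**Figure D3:**
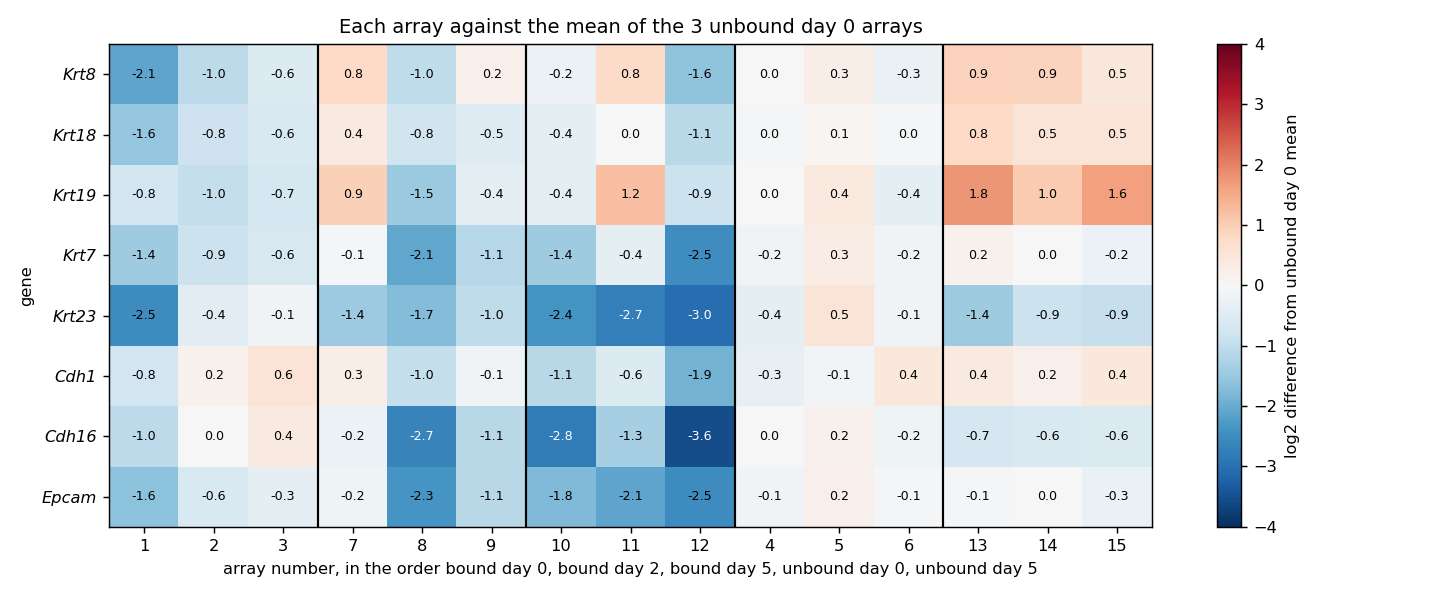
Level of each gene (rows) on each array (columns, grouped as bound day 0, 2 and 5, then unbound day 0 and 5) minus the gene's mean over the 3 unbound day 0 arrays, in log2 units. Array 12 is blue in every row, and Krt8, Krt18 and Krt19 are red on arrays 13 to 15.

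The day 0 comparison of fractions asks how far epithelial messages were depleted from the tagged ribosomes of the sham kidney. All 8 differences were below 0, but none passed: 0 of 8 by limma's adjusted p, against 8.92% of all genes (4.1% lower and 4.82% higher). At an unadjusted p under 0.05 there was 1 of 8, against 25.1% of all genes, and 57.9% of all genes had a difference below 0. The differences ran from -1.23 ± 0.59 for Krt8 to -0.02 ± 0.42 for Cdh1. Krt18 came nearest, at 2.00-fold lower (95% interval -1.76 to -0.24, adjusted p = 0.0954). Krt7, Krt8, Krt18, Krt19 and Epcam had groups that did not overlap, 5 of 8 against 22.1% of all genes. For Cdh1 the 95% interval ran from -0.94 to 0.90, and for Cdh16 (-0.24 ± 0.62) from -1.58 to 1.11.

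On day 5 of obstruction 3 of the 8 genes were lower in bound than in unbound RNA, against 14.1% of all genes that passed and 7.73% that passed lower (6.37% passed higher). Epcam was 4.05-fold lower (-2.02 ± 0.47, adjusted p = 0.0173), Cdh1 2.85-fold (-1.51 ± 0.42, adjusted p = 0.0349) and Krt23 3.17-fold (-1.66 ± 0.51, adjusted p = 0.0496). Krt18 (-1.10 ± 0.35, adjusted p = 0.0546) and Cdh16 (-1.94 ± 0.62, adjusted p = 0.0561) missed the threshold narrowly in this fit. Under other settings of the fit the Krt18 difference ran from -1.32 to -0.12, and that of Krt8 from -1.71 to -0.16. Krt7 (-1.40 ± 0.53, adjusted p = 0.0998), Krt19 (-1.49 ± 0.58, adjusted p = 0.107) and Krt8 (-1.11 ± 0.59, adjusted p = 0.226) did not pass. All 8 differences were below 0, against 48.8% of all genes, and 7 of 8 had an unadjusted p under 0.05, against 30.3%. The median of the members was -1.50, against 0.03 over all genes. Groups did not overlap for 6 of 8, against 21.3% of all genes, and Krt8 and Krt19 overlapped through array 11.

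The day 5 calls rested on few arrays. Epcam did not pass without array 12, 13 or 14 (adjusted p = 0.0535 to 0.0625), with the mean of its probe sets (-1.34, adjusted p = 0.061) or without the 4 bright arrays (-1.96, adjusted p = 0.174). Cdh1 did not pass without array 10, 12, 13, 14 or 15 (adjusted p = 0.078 to 0.117), without the bright arrays (-1.17, adjusted p = 0.261) or with arrays centred on their medians (-0.75, adjusted p = 0.174). Krt23 passed in only 3 of the 15 fits that left out 1 array. It did not pass in 6 of the 11 other settings (adjusted p = 0.0529 to 0.300). In a limma fit of 39925 probe sets Krt23 (adjusted p = 0.0766) and Cdh1 (adjusted p = 0.0569) did not pass. The brighter Epcam probe set did (adjusted p = 0.0296), and the dimmer one did not (adjusted p = 0.496). The fit without the bright arrays, which leaves 2 arrays in each day 5 group, called 0 genes of the whole array in this comparison, and 1 member had an unadjusted p under 0.05 in it.

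The change in enrichment, day 5 minus day 0, asks whether the difference between the fractions itself shifted. By limma's adjusted p 0 of 8 genes passed, against 0.0178% of all genes, and 1 had an unadjusted p under 0.05, against 14.2%. Cdh1 had the lowest p, at -1.49 ± 0.60 (adjusted p = 0.298), Cdh16 was at -1.71 ± 0.88 and Epcam at -1.15 ± 0.67. Krt8 (0.12 ± 0.83) and Krt18 (-0.10 ± 0.49, but 0.89 with arrays centred on their medians) had 95% intervals of -1.69 to 1.93 and -1.17 to 0.97. A larger depletion on day 5 than on day 0 was therefore not shown for any of them.

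**Figure D4:**
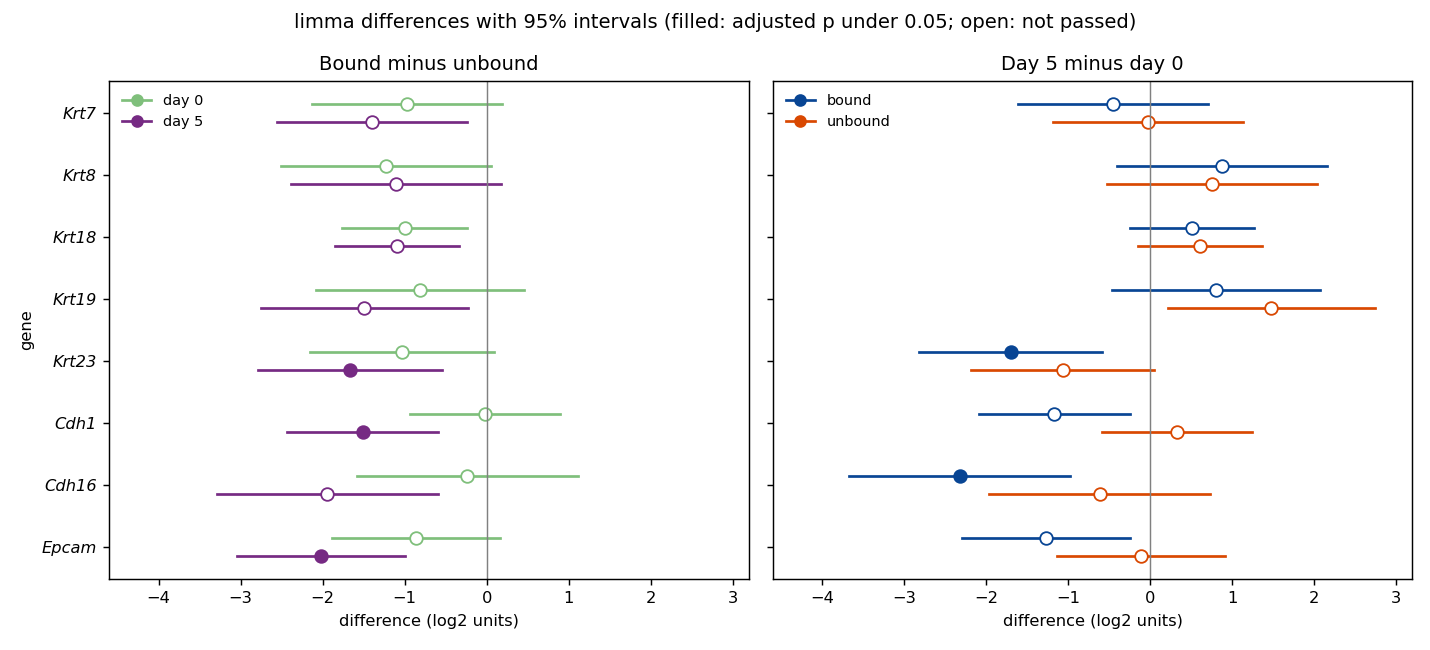
limma differences (log2 units, horizontal axis) with 95% intervals for the 8 genes, bound minus unbound on the left and day 5 minus day 0 on the right. Filled points passed an adjusted p under 0.05: Epcam, Cdh1 and Krt23 on day 5 on the left, and Krt23 and Cdh16 in bound RNA on the right.

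Within bound RNA, Cdh16 and Krt23 fell between the sham kidney and day 5 of obstruction. Cdh16 was 5.00-fold lower (-2.32 ± 0.62, adjusted p = 0.0189) and Krt23 3.25-fold (-1.70 ± 0.51, adjusted p = 0.0320). These were 2 of 8 genes, both lower, against 9.99% of all genes that passed lower and 23.7% that passed in either direction. With only 8 genes, 2 calls are too few to place the members above either share. At an unadjusted p under 0.05 there were 4 of 8, against 36.7%. Epcam (-1.27 ± 0.47, adjusted p = 0.0700) and Cdh1 (-1.17 ± 0.42, adjusted p = 0.0644) did not pass. Krt8 (0.88 ± 0.59), Krt18 (0.51 ± 0.35) and Krt19 (0.80 ± 0.58) lay above 0 and Krt7 (-0.46 ± 0.53, but 0.028 with arrays centred on their medians) below it, all with adjusted p of 0.303 to 0.576. Groups did not overlap for Cdh16 and Epcam, both lower, against 16.7% of all genes. Cdh16 did not pass without array 2, 3, 10 or 12 (adjusted p = 0.055 to 0.0735), nor without the bright arrays (-1.89, adjusted p = 0.132), nor when only the bound day 0 and day 5 arrays were fitted (adjusted p = 0.0669). Krt23 did not pass without array 2, 3, 10, 11 or 12 (adjusted p = 0.0543 to 0.128), without the bright arrays (-1.54, adjusted p = 0.155) or in the fit of those 2 groups (adjusted p = 0.134).

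On day 2 none of the 8 genes passed against day 0 in bound RNA. There were 0 by limma's adjusted p, against 9.25% of all genes, and 0 at an unadjusted p under 0.05, against 24.5%. The differences ran from -1.10 ± 0.62 for Cdh16 to 1.23 ± 0.59 for Krt8 (adjusted p = 0.306 and 0.226), and the groups overlapped for all 8, against 11.4% of all genes apart and higher and 10.1% apart and lower. Between day 2 and day 5, 0 of 8 passed by limma's adjusted p, against 0.587% of all genes, and 1 had an unadjusted p under 0.05, against 16.2%. That gene was Krt23 (-1.33 ± 0.51, adjusted p = 0.233), whose groups did not overlap, as for 5.18% of all genes in that direction. These time comparisons share the bound day 0, day 2 and day 5 arrays with each other and with the comparisons of fractions.

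In unbound RNA the means of Krt8, Krt18 and Krt19 lay higher and those of Cdh16 and Krt23 lower on day 5 than on day 0, yet 0 of 8 genes passed in the fit over all groups, against 10.4% of all genes. At an unadjusted p under 0.05 there was 1, against 24.3%, namely Krt19, 2.79-fold higher (1.48 ± 0.58, adjusted p = 0.136). Krt8 was at 0.76 ± 0.59, Krt18 at 0.61 ± 0.35, Krt23 at -1.07 ± 0.51 and Cdh16 at -0.61 ± 0.62. Groups did not overlap for Krt8, Krt18 and Krt19, higher, 3 of 8 against 24.3% of all genes, and for Krt23 and Cdh16, lower, 2 of 8 against 21.6%. A fit of the 6 unbound arrays alone, which takes its spread from those tight groups, passed all 5: Krt8 (adjusted p = 0.0476), Krt18 (0.0288) and Krt19 (0.0169) higher, and Krt23 (0.0442) and Cdh16 (0.0315) lower. The share of all genes that passed in this fit is not given here, so these 5 have no background beside them. Cdh1 (0.33 ± 0.42, but -0.036 with arrays centred on their medians), Epcam (-0.11 ± 0.47) and Krt7 (-0.03 ± 0.53) passed in neither fit. Macrophage markers, 5 in number, summed to 4527 to 6378 on unbound day 0 and 12701 to 15956 on unbound day 5, beside the collecting duct sums given above, and their part was not tested.

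Over the 15 arrays the members' levels are compared by Pearson correlations, as a description with no test, since the arrays fall into shared groups and may differ in brightness and cell makeup. Krt8, Krt18 and Krt19 correlated with each other at 0.84 to 0.93. Cdh1, Cdh16, Epcam and Krt23 correlated at 0.74 to 0.88. Between these sets the range was 0.06 to 0.65, the lowest for Krt19 with Krt23. After the group means were taken out these ranges were 0.77 to 0.93, 0.49 to 0.87 and 0.09 to 0.95. Krt8 with Cdh16 was then at 0.95 against 0.38 before, and Krt19 with Krt23 at 0.09 against 0.06. Krt7 correlated with both sets, at 0.73 to 0.80 with Krt8, Krt18 and Krt19 and at 0.63 to 0.87 with the adhesion genes and Krt23.

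Among the other genes tested, those most like each member were named as the 3 with the highest correlation over the 15 arrays. Cdh16 was most like Rhpn2 (r = 0.98), Atp1b1 (0.98), a sodium pump subunit, and Sorl1 (0.97). Epcam was most like Prkcq (0.98), Rnf128 (0.97) and the water channel Aqp1 (0.97), and Cdh1 like Lratd2 (0.97), Acvr1b (0.96) and Ivns1abp (0.95). Krt7 was most like Ldhb (0.96), Faah (0.95) and the epithelial splicing factor Esrp1 (0.95), and Krt23 like Prom2 (0.94), Rnf43 (0.94) and Rasgrp1 (0.93). Krt8 was most like Mapkapk3 (0.95), Lsr (0.92), a receptor of tricellular junctions, and Cd86 (0.91). Krt18 was most like Lsr (0.94), Shtn1 (0.93) and Cd68 (0.92), and Krt19 like Cd68 (0.94), Fermt3 (0.92) and Csf2rb (0.91). Cd68 and Cd86 are markers of macrophages, and Cd68 differed by 1.46 ± 0.60 between unbound day 5 and day 0 (adjusted p = 0.155).

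Other epithelial genes, from lists drawn up with earlier results of these data known, are described next, beside 7.73% of all genes that passed lower and 6.37% that passed higher in bound RNA on day 5. In the fit without the 4 bright arrays 0 genes of any list passed. Of 20 tested tight junction and polarity genes 13 were lower in bound RNA on day 5 and 0 higher, with a median of -1.87 against 0.03 over all genes. They included the tight junction proteins Marveld3 (-2.87 ± 0.55, adjusted p = 0.00802) and Ocln (-2.74 ± 0.54, adjusted p = 0.00855) and the claudins Cldn8 (-2.65 ± 0.40, adjusted p = 0.00320) and Cldn10 (-2.46 ± 0.38, adjusted p = 0.00377). Of 14 epithelial transcription factors 7 were lower, led by Pax8 (-2.73 ± 0.39), a nephron factor, and Ehf (-2.54 ± 0.36), and 0 were higher. Of 15 genes of the epithelial surface and splicing programme 6 were lower (2 with arrays centred on their medians), with the protease St14 at -2.08 ± 0.52 and Esrp1 at -1.88 ± 0.54.

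Adherens junction and desmosome genes were read beside the same shares of all genes, 7.73% lower and 6.37% higher. Of 14 adherens junction genes 3 were lower: the cadherins Cdh6 (-2.23 ± 0.61) and Cdh2 (-1.32 ± 0.30) and the junction linker Afdn (-0.99 ± 0.29). Of 11 desmosome genes 1 was lower, Perp (-1.99 ± 0.42, adjusted p = 0.0112), against 4 without array 11. The list of 13 other keratins and plakins also held Krtcap3, a keratinocyte-associated gene that is neither. Of these 13 genes 3 were lower (1 without array 11), namely Ppl (-1.80 ± 0.54), Krt80 (-1.48 ± 0.40) and Krtcap3 (-1.37 ± 0.34). In the opposite direction, 7 of 13 transition factors and mesenchymal genes were higher in bound RNA (11 with arrays centred on their medians), among them the factors Twist1 (2.98 ± 0.58) and Snai1 (2.68 ± 0.48) and the intermediate filament gene Des (2.88 ± 0.45).

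The same lists were read on day 0, when 4.1% of all genes passed lower and 4.82% higher in bound RNA. Of 20 tight junction and polarity genes 3 were lower and 2 higher in bound RNA (median centring gave 5 and 0), and of 14 epithelial transcription factors 4 were lower. Of 13 other keratins and plakins 2 were higher and 0 lower, namely the plakins Plec (2.91 ± 0.60, adjusted p = 0.0124) and Eppk1 (1.61 ± 0.45, adjusted p = 0.0442). Of the adherens junction, desmosome and surface lists 0 of 14, 0 of 11 and 0 of 15 passed by limma's adjusted p, and 3 of each list had an unadjusted p under 0.05. The mesenchymal list had 8 of 13 higher (4 with arrays centred on their medians), with Cdh11, the mesenchymal cadherin, at 2.00 ± 0.26 (adjusted p = 0.000988). Without the 4 bright arrays 1 tight junction and polarity gene was lower and 0 higher, 0 epithelial transcription factors were lower, 0 of the other keratins and plakins were higher and 3 mesenchymal genes were higher. On day 0 that fit passed 335 genes of the whole array, against 845 with arrays centred on their medians and 1504 in the main fit.

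Some epithelial genes at or below the negative controls on day 0 were higher after obstruction. Krt20, a keratin of the gut and urothelium, was at least 5.93-fold higher in bound RNA on day 2 (adjusted p = 0.000592), at least 4.69-fold on day 5 (adjusted p = 0.000554) and at least 13.4-fold in unbound RNA on day 5 (adjusted p = 0.00114). Cdh17, an intestinal cadherin, was at least 3.52-fold higher in unbound RNA on day 5 (adjusted p = 0.000886), and the claudin Cldn6, which was above the controls in unbound RNA, at least 4.66-fold higher in bound RNA on day 5 (adjusted p = 3.51e-05). Each bound is the brighter group against the negative control limit of the dimmer one. The adjusted p-values are limma's for the differences without that limit. They rest on day 0 signal at or below the controls and do not test the bounds. A gene could also enter the fit through its higher arrays alone. In bound RNA between day 0 and day 5 the junction-linked plakins Eppk1 (-3.38 ± 0.45, adjusted p = 0.000379) and Ppl (-3.29 ± 0.54, adjusted p = 0.00145) fell, and so did the claudin Cldn10 (-2.75 ± 0.38, adjusted p = 0.000519) and the polarity gene Pard6b (-2.45 ± 0.27, adjusted p = 0.000105). In this comparison 9.99% of all genes passed lower and 13.7% higher. Of 20 tight junction and polarity genes 9 were lower and 1 higher, and of 13 other keratins and plakins 3 were lower and 1 higher. Of 14 adherens junction genes 0 were lower and 3 higher. The array held 48 keratin genes, of which 40 were tested and 11 lay above the negative controls on all 15 arrays, the 5 keratins followed here included.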

How the data were processed

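Polysomal RNA was amplified in 1 round (NuGEN WT-Ovation) and hybridized to 15 one-colour Affymetrix arrays, per the labels' protocols. The authors deposited intensities on a linear scale, 1 per probe set. How probes were summarised, corrected for background and scaled is, in the sources used here, not given. The 8 genes and the lists were chosen with earlier results of these data known.

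Values were taken as log2 of intensity plus 1 and quantile normalized, with 64 control probe sets apart. Each gene was read from its brightest probe set, and genes above the array's 25th percentile on at least 3 arrays were tested (16864 of 18193). Groups came from the titles. limma 3.58.1 in R 4.3.3 fitted 1 mean per group and 7 contrasts (residual degrees of freedom 10, prior 2.32), with Benjamini-Hochberg adjustment at 0.05. The highest of 27 negative control probe sets was an array's limit. Named genes were all 8 members, up to 4 passing genes of a list with the largest differences, and 3 like genes per member. The model was tested on simulated data: of genes shifted 4-fold it found 58.5% for day 5 bound minus unbound and 49.5% for day 0, and of those shifted 2-fold 4% and 0%. Alternatives are given in the closing section. Figures used matplotlib 3.10.9.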

Additional observations from a re-analysis of the deposited data

How the results depend on the processing

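Counts of members that passed moved with the settings. For bound minus unbound on day 5 (3 of 8) the count was 1 with arrays centred on their medians, under which the median over all genes was 0.41 in place of 0.03, and 1 with the mean of all probe sets. It was 5 with a 50th percentile filter, a pseudocount of 16 or a trended and robust prior, 6 with the Gapdh ratio as a covariate, 8 with array weights and 0 without the 4 bright arrays. Leaving out 1 array gave 0 to 6, with 0 without array 12, 13 or 14, 1 without array 10 or 15, 5 without array 7 and 6 without array 11. For bound minus unbound on day 0 (0) it was 1 with a trended and robust prior or array weights and 0 to 1 on leaving out 1 array, with 1 without array 7. For bound day 5 minus day 0 (2) it was 4 with the 50th percentile filter, the pseudocount of 16, the trended prior or array weights, 0 with only the groups of the contrast or without the bright arrays, and 0 to 4 on leaving out 1 array, with 0 without array 2, 3, 10 or 12 and 4 without array 1 or 8. For bound day 5 minus day 2 (0) leaving out 1 array gave 0 to 1, with 1 without array 8. For unbound day 5 minus day 0 (0) it was 5 with only its own groups, 3 with array weights and 0 to 1 on leaving out 1 array, with 1 without array 1. For the change in enrichment (0) it was 2 with array weights, namely Cdh1 and Cdh16. The cause was not tested. These member counts have no share of all genes beside them, and the number of all genes that passed moved as well. For bound minus unbound on day 5 it was 2379 in the main fit and 2364 with median centring. It was 1729 without array 11 and 0 without the bright arrays. On day 0 it was 1504, 845, 1617 and 335 in the same order. For the other settings it is not given here. For the epithelial lists, median centring and leaving out array 11 or the bright arrays were chosen after seeing the data. Without the bright arrays no list gene passed on day 5, and the tight junction and polarity median was -1.74 against -1.87.

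No difference that passed reversed. Among those that had not passed, bound minus unbound on day 0 reversed for Cdh1 with array weights (0.039) and without the bright arrays (0.21). For Krt7, bound day 2 minus day 0 became 0.12 with brightness as a covariate, bound day 5 minus day 0 became 0.028 with median centring and 0.084 without the bright arrays, and unbound day 5 minus day 0 became 0.0059 with array weights and 0.046 with brightness. For bound day 5 minus day 2, median centring and leaving out the bright arrays gave 0.065 and 0.17 for Krt7, 0.14 and 0.39 for Krt8 and 0.28 and 0.017 for Krt18, and the Gapdh covariate gave -0.10 for Krt19. For unbound day 5 minus day 0, median centring gave -0.036 for Cdh1. For the change in enrichment, the same pair of settings gave 0.42 and 0.093 for Krt7, 0.89 and 0.17 for Krt18 and 0.024 and 0.0072 for Krt19, and Krt8 became -0.014 with the mean of probe sets, -0.16 with array weights and -0.37 with the Gapdh covariate.

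Leaving out 1 array reversed 16 of the 56 member differences, none of which had passed. For bound minus unbound on day 0 the ranges were -0.30 to 0.36 for Cdh1 and -0.53 to 0.17 for Cdh16. For bound day 2 minus day 0 they were -0.65 to 0.069 for Cdh1, -0.86 to 0.22 for Epcam, -0.11 to 1.10 for Krt19, -1.12 to 0.086 for Krt23 and -0.64 to 0.37 for Krt7. For bound day 5 minus day 0 the range was -0.97 to 0.080 for Krt7. For bound day 5 minus day 2 they were -0.40 to 0.17 for Krt18, -0.30 to 0.92 for Krt19, -0.85 to 0.20 for Krt7 and -0.88 to 0.28 for Krt8. For the change in enrichment they were -0.37 to 0.20 for Krt18, -0.95 to 0.11 for Krt7 and -0.42 to 0.74 for Krt8. For unbound day 5 minus day 0 the range was -0.12 to 0.12 for Krt7.

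No paired analysis was possible because the array numbers in the titles run on across the groups and no 2 groups share one.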
